A study of Mus musculus with 8 samples.

Results

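Cytosolic ribosomal proteins were followed in the 4T1.2 model, a clonal subline of the 4T1 mouse mammary carcinoma that spreads from the mammary gland to bone in syngeneic Balb/c mice. The members were the probe sets (groups of oligonucleotides on the array that read the same transcript) annotated with a single gene symbol of the form Rpl or Rps plus a number, with an optional suffix a, l, x or y, together with Rplp0, Rplp1, Rplp2 and Rpsa. This gave 100 probe sets of 45101 on the array, from 46 of 18193 genes. There were 4 arrays of primary mammary tumour and 4 of spine metastasis. Arrays with equal numbers share a mouse, which makes 4 mice with both tumours. Both groups carried the same transplanted tumour and are labelled as isolated tumour epithelial cells, with no treatment and no age given. RNA went through 2 rounds of amplification before hybridization. Rplp1 had no probe set of its own symbol.

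The cytosolic ribosome has a small (40S) and a large (60S) subunit, each built from ribosomal RNA and a set of proteins made in nearly equal amounts. RNA polymerase I makes most of the ribosomal RNA, biogenesis factors assemble the subunits in the nucleolus, and Myc and mTOR signalling raise output in growing cells. The mRNAs of ribosomal proteins begin with a run of pyrimidines, the terminal oligopyrimidine (TOP) motif, through which mTOR and the binding protein Larp1 set their translation. These mRNAs are short and among the most abundant of a cell, and mammalian genomes hold many processed pseudogene copies of them.

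The starts of the 10 genes that had a called probe set and 1 entry in the promoter table are shown. They were searched for a run of pyrimidines. Each window runs from 10 bases before to 20 bases after the annotated gene start, read 5′ to 3′ on the gene's strand from RefSeq (build GRCm38.p6). Capitals mark the longest run of C or T where it reached 8 bases. A run was counted anywhere in the window, so it need not begin at the gene start as a TOP motif would.
Rpl13a (chr7:45128726-45128755, minus strand): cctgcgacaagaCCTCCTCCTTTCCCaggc
Rpl27 (chr11:101442235-101442264, plus strand): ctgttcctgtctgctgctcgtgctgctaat
Rpl27a (chr7:109519185-109519214, plus strand): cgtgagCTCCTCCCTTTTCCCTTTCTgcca
Rpl35 (chr2:39005112-39005141, minus strand): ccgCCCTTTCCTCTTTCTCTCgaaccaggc
Rpl37a (chr1:72711250-72711279, plus strand): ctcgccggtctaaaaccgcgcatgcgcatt
Rpl41 (chr10:128549149-128549178, minus strand): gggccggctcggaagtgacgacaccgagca
Rps10 (chr17:27635225-27635254, minus strand): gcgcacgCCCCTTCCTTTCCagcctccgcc
Rps25 (chr9:44407704-44407733, plus strand): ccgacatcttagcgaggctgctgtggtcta
Rps28 (chr17:33824543-33824572, minus strand): cgcgtgcggtctcgcgagagcgaaagtgag
Rps9 (chr7:3704031-3704060, plus strand): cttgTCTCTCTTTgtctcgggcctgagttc

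A run of at least 8 C or T lay in this window in 5 of these 10 genes. It was found in 16 of the 40 member genes with an entry (40%), against 13% of the 27025 genes in the table. Of the other motifs searched on both strands of the 300-base promoter, CCGGAAG, the core bound by ETS factors, was present in 20 of the 40 (50%) against 9.93% of all genes. The YY1 core AAGATGGC was present in 3 (7.5%) against 3.19%. These are matches of letters near the annotated start, which need not be the start used in these cells.

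Ribosomal protein transcripts did not move as a block between primary tumour and bone metastasis. Of the 100 probe sets, 20 were called higher in metastasis, 3 were called lower and 77 were not called (limma, Benjamini-Hochberg adjusted p under 0.05 over the 34945 probe sets with a single symbol). Over all those probe sets 20.6% were called, 8.72% higher and 11.9% lower. The median log2 fold, metastasis minus primary, was 0.02 for the members and 0.09 for all. Shifting the arrays to a common median moved the median of all probe sets from 0.09 to -0.06 and that of the members to -0.13. Shifting them to a common 75th percentile gave 0.29 and 0.22. The sign of a small fold thus depends on the scaling.

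**Figure D1:**
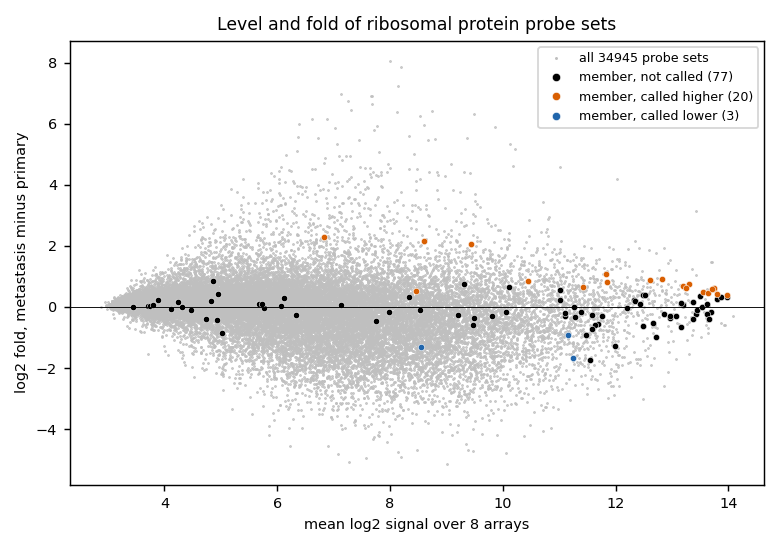
Mean log2 signal over the 8 arrays (horizontal axis) against the log2 fold, metastasis minus primary (vertical axis), for all 34945 probe sets (grey) and the 100 ribosomal protein probe sets (black, not called; orange, called higher; blue, called lower). Most members lie at the bright end, and 64 of the 100 had a mean of at least 10.

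Most members were bright, as this family usually is, and the background was read at their level too. Of 1854 probe sets with a mean log2 signal of at least 10, 36.5% were called, 17.5% higher and 19% lower. Of the 64 members among them, 16 were called higher (25%) and 2 lower (3.12%). A limma fit limited to the 1854 called 13 of the 64 higher (20.3%) and 4 lower (6.25%), against 18% and 23.1% of all. The groups did not overlap in 26 of these 64, against 43.4% of the 1854. At the dim end, 15 members lay under the median of all values (5.57), where a probe set reports little beyond background. By limma 0 of these 15 were called, and the share called among all probe sets under that median was not counted.

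Counted by gene, each read from its brightest probe set, 8 of 46 were called higher and 0 lower (limma, adjusted over 18193 genes). Over all genes, 9.72% were called higher and 12.1% lower, and in the 1411 genes with a mean of at least 10 these were 17.7% and 17.8%. At an unadjusted p under 0.05, 13 member genes were higher and 4 lower, together 37% of the members against 36.2% of all genes. With the mouse as a block, 5 genes were called higher (10.9%) and 0 lower, against 7.63% and 10.4% of all genes. The primary and metastasis values did not overlap in 17 of the 46 genes, against 29.3% of all genes. In the 34 members with a mean of at least 10 they did not overlap in 15, against 43.3% of all such genes. The 22 genes of the small subunit and the 24 of the large subunit gave 4 rises each, with medians of 0.03 and 0.04.

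**Figure D2:**
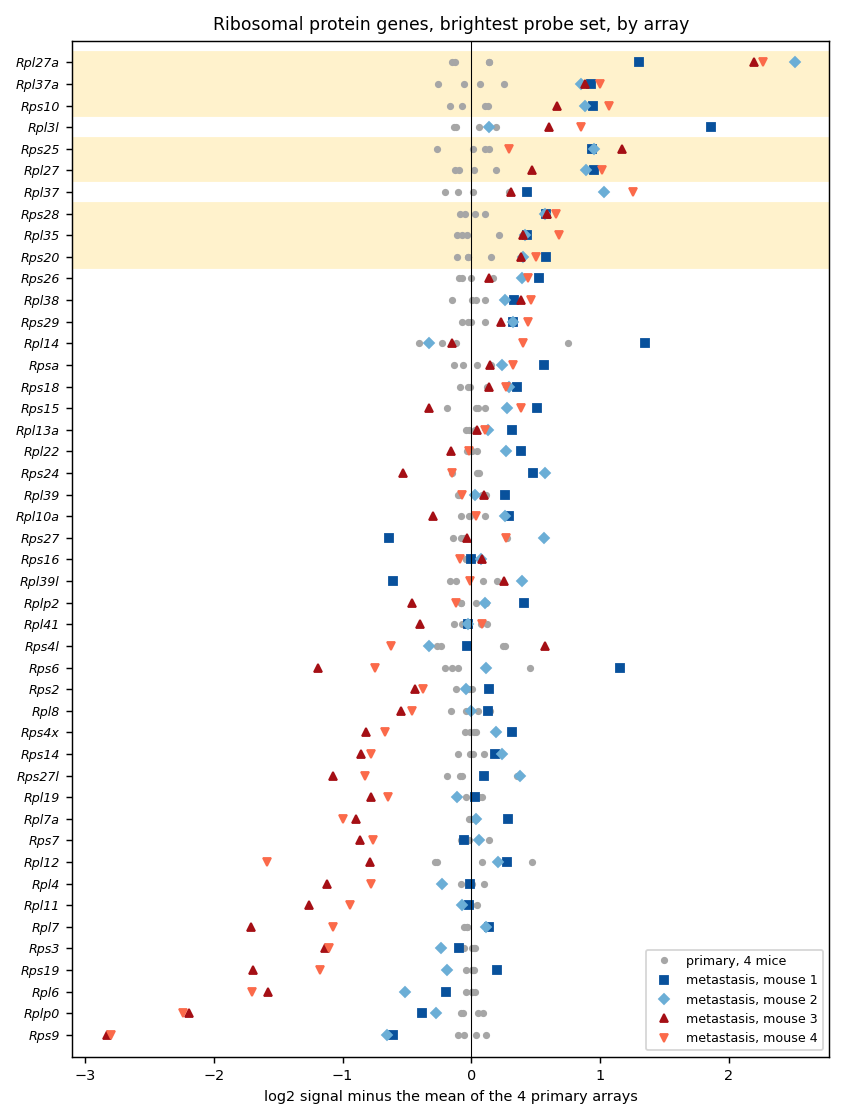
Log2 signal of each of the 46 genes on each array, as the difference from the mean of the 4 primary arrays, ordered by fold; shaded bands mark the 8 called genes. Metastasis arrays of mice 3 and 4 (red) lie left of those of mice 1 and 2 (blue) for most genes in the lower part.

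The 4 small-subunit genes that rose were Rps10, Rps25, Rps28 and Rps20. Rps10, which sits near the mRNA entry of the small subunit, had log2 signals of 12.29, 12.27 and 12.09 on primary arrays 1 to 3, just above 12 on primary array 4, and of 13.11, 13.05, 12.83 and 13.23 on metastasis arrays 1 to 4. The groups did not overlap, and the log2 fold was 0.89 (SE 0.15, limma adjusted p = 0.00463), a 1.85-fold rise. Of its other 5 probe sets, 1 was called higher at 0.65, and 4 were not called, with folds of 0.38, 0.22, -0.04 and -0.20. Rps28, next to the mRNA exit, had 13.48, 13.56, 13.36 and 13.40 in primary tumours and 14.03, 14.02, 14.04 and 14.11 in metastases. The metastasis arrays lay close together and above every primary array, and the fold was 0.60 (SE 0.12, limma adjusted p = 0.0104). Its 3 probe sets were all called higher, at 0.58, 0.60 and 0.64. Rps20, of the head of the small subunit, had 13.56, 13.38, 13.29 and 13.38 against 13.98, 13.80, 13.79 and 13.90. Each metastasis array was above every primary array, with a fold of 0.47 (SE 0.13, limma adjusted p = 0.0347). Another bright probe set was called higher at 0.63, and 2 dim ones, under the median of all values, had folds of -0.42 and -0.05.

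Rps25, which is needed for initiation at several viral entry sites, had 10.05, 10.17, 10.14 and 9.77 in primary tumours and 10.97, 10.98, 11.21 and 10.33 in metastases. The metastasis of mouse 4 was the lowest of its group, and the fold was 0.84 (SE 0.21, limma adjusted p = 0.0234). A brighter probe set of Rps25, which shares its annotation with 2 predicted genes and so was no member, had a fold of -0.12 (SE 0.16) and was not called.

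The 4 large-subunit genes that rose were Rpl27a, Rpl37a, Rpl27 and Rpl35. Rpl37a, a zinc-binding protein, had 12.61, 12.42, 12.30 and 12.10 in primary tumours and 13.29, 13.21, 13.24 and 13.36 in metastases. The metastasis values lay above all primary values, and the fold was 0.92 (SE 0.15, limma adjusted p = 0.00425). Its dimmer probe sets had folds of 0.23 and -0.25, not called. Rpl27 had 11.63, 11.46, 11.31 and 11.34 against 12.39, 12.33, 11.91 and 12.45, a fold of 0.83 (SE 0.17, limma adjusted p = 0.00967). The groups did not overlap, with the metastasis of mouse 3 lowest in its group. Another probe set of Rpl27 was called higher at 1.09, and the third, about as bright at a mean of 11.63, had a fold of -0.59 (SE 0.27) that was not called, although it was lower in all 4 mice. Rpl35, which lies at the exit of the peptide tunnel, had 13.52, 13.24, 13.19 and 13.27 against 13.74, 13.72, 13.71 and 13.99, a fold of 0.49 (SE 0.14, limma adjusted p = 0.0416).

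Rpl27a, a large-subunit protein, gave the largest fold of the 46 genes. Its probe set had 8.25, 8.54, 8.27 and 8.54 in primary tumours and 9.70, 10.92, 10.60 and 10.66 in metastases, a fold of 2.07 (SE 0.26, limma adjusted p = 0.00157), or 4.2-fold. Mouse 1 had the lowest metastasis value, still above all primary values. A much brighter probe set that lists Rpl27a with predicted genes lay at a mean of 13.05 and had a fold of 0.35 (SE 0.13, limma adjusted p = 0.0914). The other member probe set of Rpl27a, at a mean of 3.88, had a fold of 0.24 (SE 0.14) and was not called.

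The calls of Rpl27a, Rpl37a and Rps10 held in each of the 12 fits that left out an array or a mouse. Rpl27 lost its call without mouse 4 and Rps28 without mouse 3 or mouse 4. Rps25 lost it without primary arrays 1, 3 or 4, without metastasis array 3 and without mice 1, 2 or 3. Rpl35 kept its call only without primary array 1 or metastasis array 1, and Rps20 only without metastasis arrays 2 or 4. With the mouse as a block, Rps28 (limma adjusted p = 0.0547), Rps20 (0.0974) and Rpl35 (0.109) were no longer called. With the arrays shifted to a common median, Rps25 (limma adjusted p = 0.062), Rpl35 (0.0901) and Rps20 (0.11) lost their calls.

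The calls also depended on the probe set. When each gene was read by the mean of its probe sets, Rpl37a had a fold of 0.30 (limma adjusted p = 0.224), Rps10 of 0.31 (0.21), Rpl27 of 0.44 (0.122), Rpl35 of 0.19 (0.385) and Rps20 of 0.16 (0.418), and these 5 were no longer called. Rpl27a kept its call at 1.15 and Rps28 at 0.61, and Rps25 had a single member probe set. This mean gives dim probe sets the weight of bright ones, such as those of Rps20 at 4.94 and 4.11 and of Rpl35 at 4.83. In Rpl27 the probe set with the opposite fold was bright, at 11.63.

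Different probe sets of the same ribosomal protein gene often had folds of different sign. Of the 23 genes with more than 1 probe set, 14 had folds of both signs. Many of these folds were small and not called, and 1 gene, Rpl35, had calls both ways. The share among other genes with several probe sets was not counted, so the 14 cannot be called particular to this family. In Rpl35, 3 probe sets were called higher, at 0.49, 0.67 and 0.76, and another was called lower at -0.92 (SE 0.26, limma adjusted p = 0.0356). The lower probe set had 11.60, 11.60, 11.67 and 11.58 on primary arrays and 11.22, 10.89, 9.92 and 10.72 on metastasis arrays. Its groups did not overlap, in the opposite direction to the 3 that rose. The remaining 2 probe sets had folds of -0.05 and 0.18 and were not called.

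Rpl13a, a large-subunit protein that also silences inflammatory mRNAs after release from the ribosome, had 4 member probe sets. The called probe set fell, from 11.84, 12.13, 12.20 and 12.17 to 11.02, 10.95, 9.79 and 9.90 (fold -1.67, SE 0.30, limma adjusted p = 0.00734). The brightest had 13.33, 13.28, 13.26 and 13.34 against 13.62, 13.43, 13.34 and 13.41, with a fold of 0.15 (SE 0.12) that was not called, although its groups did not overlap. The other probe sets had folds of 0.55 and 0.67, not called. Rpl22, which binds RNA and is often lost in lymphoid tumours, had a called fall of -1.31 (SE 0.28, limma adjusted p = 0.0137) in 1 probe set and folds of -0.28 and 0.12 in the others.

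Rpl41, the shortest protein of the ribosome, had 2 dimmer probe sets with folds of 2.29 (SE 0.49, limma adjusted p = 0.0131) and 2.16 (SE 0.47, limma adjusted p = 0.0145). Its 2 brightest had folds of -0.23 and -0.09. In the probe set with the fold of 2.29, primary arrays had 5.99, 5.45, 5.82 and 5.46 and metastasis arrays 7.80, 7.41, 7.12 and 9.56, with mouse 4 well above the rest. Rps9, which helps to set decoding accuracy, rose by 0.52 (SE 0.14, limma adjusted p = 0.0351) in a probe set with a primary mean of 8.20, while its brightest, with a primary mean of 12.42, had a fold of -1.72 (SE 0.54, limma adjusted p = 0.055) and was not called. Rps29, a small zinc-binding protein, had 3 probe sets with folds of 0.33, 0.38 and 0.44, of which the upper 2 were called.

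**Figure D3:**
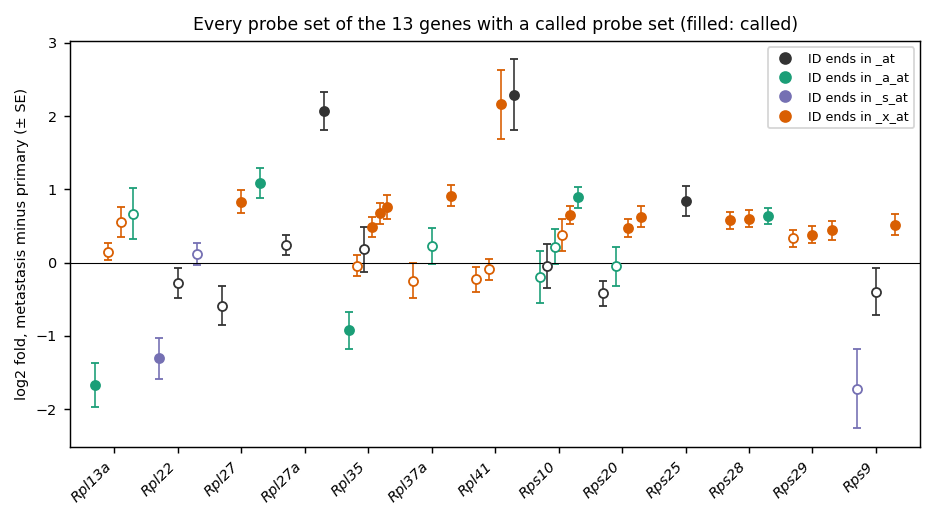
Log2 fold, metastasis minus primary, with its SE for every member probe set of the 13 genes with at least 1 called probe set; filled points are called, and colours give the ending of the probe set's ID. Rpl35 has called probe sets on both sides of 0. Rpl13a, Rpl22, Rpl27, Rpl37a, Rpl41, Rps9, Rps10 and Rps20 have folds on both sides with calls on 1 side.

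By the array maker's naming, an ID ending in _x_at marks probes that may also bind other sequences, _a_at and _s_at mark probes shared by transcripts of a gene or by several genes, and a plain _at marks neither. Of the 20 probe sets called higher, 14 ended in _x_at, 3 in _a_at and 3 in plain _at. The 40 members ending in _x_at thus gave 14 rises (35%) and 0 falls by limma, and 20.2% of all 2038 probe sets with that ending were called higher and 4.56% lower. When members and all other probe sets were limited to plain _at, 3 of 31 members were called higher and 0 lower by limma. At an unadjusted p under 0.05 there were 8 of these members, and the share of all plain _at probe sets at that cut was not counted. Of all plain _at probe sets 7.3% were called higher and 10.7% lower, so the 9.68% of members called higher is near that share. The part of binding to related sequences in the rises was not tested.

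Another 110 probe sets listed a ribosomal protein together with other symbols, 100 of them with a pseudogene or predicted gene, and 28 ribosomal protein genes were present only there. In a fit over all 35877 probe sets with 1 or more symbols, chosen after seeing the data, 25 of the 110 were called higher and 2 lower, against 8.77% and 11.9% of all. With the members this made 45 of 210 higher and 5 lower. Rps27, a zinc-finger protein of the small subunit, had 13.45, 13.16, 13.04 and 12.83 in primary tumours and 14.24, 14.26, 14.13 and 14.19 in metastases there (fold 1.09, SE 0.15, limma adjusted p = 0.00267). The member probe set of Rps27 was dim, with group means of 6.05 and 6.09. Rpl36 had 2 probe sets that rose, by 0.76 and 1.16, and another at 0.53 (SE 0.17) that was not called (limma adjusted p = 0.0526). Rpl10, which joins the large subunit late in its assembly, had a probe set at 12.79, 13.13, 13.08 and 13.19 in primary tumours and at 12.41, 12.36, 10.54 and 10.33 in metastases. It fell by 1.64 (SE 0.49, limma adjusted p = 0.0467), and another probe set of Rpl10 had a fold of -0.17.

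The metastases of mice 3 and 4 differed from those of mice 1 and 2 in many members. In 51 of the 100 probe sets, metastasis arrays 3 and 4 both lay below arrays 1 and 2, against 22.5% of all probe sets. Among probe sets with a mean of at least 10, this held for 39 of 64 members (60.9%) and for 46.9% overall. The opposite order was seen in 9 of the 100 members, against 31.1% of all probe sets. Over all members the median difference, metastasis minus primary, was 0.22 in mice 1 and 2 and -0.06 in mice 3 and 4. Over all probe sets it was 0.0008 and 0.15. Over probe sets with a mean of at least 10 it was 0.01 and -0.38, and over the 64 members among them 0.27 and -0.18. The bright members thus stood higher than bright probe sets at large in both pairs of mice, a difference that was not tested.

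Rplp0, the base of the stalk that recruits translation factors and a frequent reference gene in PCR, had 12.55, 12.57, 12.68 and 12.72 in primary tumours and 12.25, 12.36, 10.44 and 10.40 in metastases. The groups did not overlap, but the metastasis arrays split into a pair near the primary level and a pair far below it, and the fold of -1.27 (SE 0.47) was not called (limma adjusted p = 0.0877). Rpl6, a large-subunit protein, had 13.25, 13.18, 13.22 and 13.23 against 13.02, 12.71, 11.64 and 11.52 (fold -1.0, SE 0.34, limma adjusted p = 0.0652). The brightest probe set of Rps9 had 12.36, 12.45, 12.32 and 12.53 against 11.81, 11.76, 9.58 and 9.61. In both, the metastases of mice 3 and 4 lay far below all other arrays. Rps3, at the mRNA entry of the small subunit, had 13.49, 13.51, 13.42 and 13.48 against 13.38, 13.24, 12.34 and 12.37 (fold -0.64, SE 0.26, limma adjusted p = 0.112). In Rps19, mutated in Diamond-Blackfan anaemia, the values were 11.94, 11.89, 11.93 and 11.95 against 12.13, 11.74, 10.24 and 10.76 (fold -0.71, SE 0.38).

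In mice 3 and 4 alone, 13 member genes were called lower and 4 higher by limma, against 17.4% and 8.94% of all genes. By probe set 24 were lower and 8 higher, against 15.6% and 7.57% of all. Shares at the signal level of the members were not counted for these mice. Genes with a mean of at least 10 had a median difference of -0.32 in mice 3 and 4. That of the 34 members among them was -0.19. Rplp0 was then at -2.29 (limma adjusted p = 0.00512) and Rpl11, which carries 5S ribosomal RNA and binds Mdm2, at -1.08 (limma adjusted p = 0.0251). In mice 1 and 2 alone 0 features of any kind were called by limma, with 8 member genes at an unadjusted p under 0.05. The share of all genes at that unadjusted cut was not counted for these mice. Leaving out metastasis array 1 or metastasis array 2 raised the number of member genes called lower from 0 to 5 (10.9%) or 3 (6.52%). Of all genes, 14.8% and 14.9% were then called lower, which is more than among the members. Whether the 2 pairs of mice differ was not tested.

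**Figure D4:**
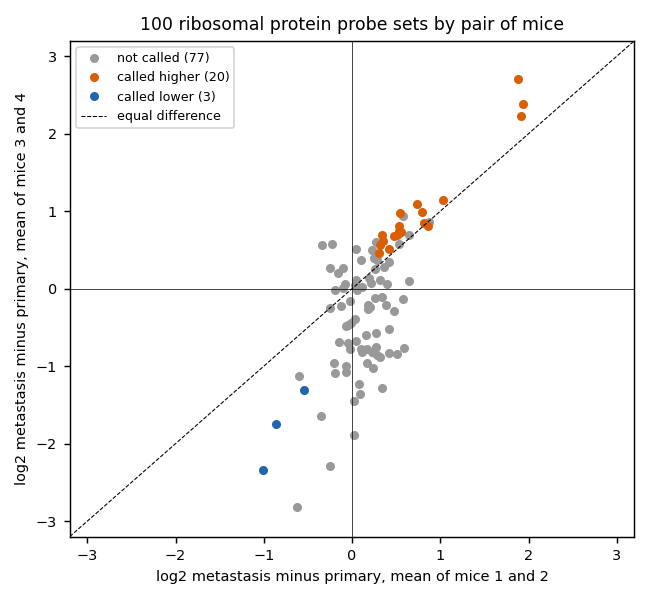
Mean log2 difference, metastasis minus primary, in mice 1 and 2 (horizontal axis) and in mice 3 and 4 (vertical axis) for the 100 ribosomal protein probe sets, coloured by call in all 4 mice; the dashed line marks equal differences. Many uncalled probe sets lie near 0 horizontally and well below 0 vertically. Most of those called higher lie nearer the line, which a call favours because it needs a small spread within the group. The 3 called lower lie below the line.

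Measures of RNA and array quality moved with both the groups and the pairs of mice. The actin control read at the 3′ end exceeded that read at the 5′ end by 1.08 to 1.90 on the log2 scale on primary arrays, by 4.85 and 4.55 on metastasis arrays 1 and 2, and by 5.72 and 6.18 on metastasis arrays 3 and 4. For Gapdh the excess was 1.55 to 2.59, then 4.66 and 4.62, then 6.08 and 5.51. With the actin difference as a covariate, which did not overlap between the groups, limma called 0 member genes and 0 of all genes. At an unadjusted p under 0.05 there were 4 member genes, and the share of all genes at that cut was not counted. The median fold was 0.71 for member genes and -0.13 for all genes. The median SE over all genes was 0.74 in that fit, against 0.23 in the main fit. Markers of other cells moved with the groups as well. By limma 6 of 9 B lineage, 7 of 10 granulocyte, 9 of 9 nerve and 3 of 6 cartilage and bone genes were higher, and 7 of 9 macrophage genes were lower. The mean log2 level of the B lineage list ran from 5.58 to 5.83 on primary and from 7.88 to 11.23 on metastasis arrays. That of granulocyte genes ran from 6.85 to 7.19 and from 9.94 to 10.71, that of nerve genes from 4.87 to 4.98 and from 8.14 to 9.73, that of macrophage genes from 11.50 to 12.35 and from 8.77 to 10.46, and that of cartilage and bone genes from 5.83 to 5.95 and from 6.64 to 7.39. Epithelial genes were lower in 2 of 11 cases, with levels of 7.98 to 8.78 and 6.26 to 8.01. Of 6 erythroid and 4 T cell genes 0 were called by limma, and 5 of the erythroid genes lay under the median of all values. No marker list was at 0, since array values have no true zero. The part of these in the ribosomal protein values was not tested. In such bulk samples fewer cells of a type and less RNA per cell cannot be told apart.

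Rplp2, of the stalk, had 13.59, 13.66, 13.47 and 13.47 in primary tumours and 13.96, 13.66, 13.09 and 13.43 in metastases, a fold of -0.02 (SE 0.20). The primary values lay within the range of the metastasis values. Rplp1, through a probe set shared with a predicted gene, had a fold of -0.32 (SE 0.14). Rpsa, which is also the precursor of a laminin receptor, had 13.86, 13.65, 13.76 and 13.57 against 14.27, 13.95, 13.86 and 14.04, higher in each mouse, with a fold of 0.32 (SE 0.15) that did not pass (limma adjusted p = 0.157). Rps6, the S6 kinase substrate, had a member probe set at 8.52, 7.86, 7.91 and 7.95 against 9.22, 8.17, 6.87 and 7.31, a fold of -0.17 (SE 0.46). Among 9 probe sets shared with other symbols the brightest had a fold of -0.43 (SE 0.15), not called, and 2 were called higher, at 0.42 and 0.47.

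The paralogs of restricted expression were mostly dim. Rpl39l, a testis paralog of Rpl39, had group means of 4.31 and 4.32 and Rps4l of 4.52 and 4.42, both under the median of all values. Rpl3l, the muscle paralog of Rpl3, had 4.63, 4.50, 4.30 and 4.32 in primary tumours and 6.30, 4.57, 5.04 and 5.28 in metastases, a fold of 0.86 (SE 0.33) that was not called. The metastasis of mouse 1 was the highest, and the groups overlapped. Rps27l, a p53 target, was bright enough to read, at 10.01, 9.57, 9.47 and 9.59 against 9.76, 10.04, 8.59 and 8.84 (fold -0.35, SE 0.33). Rps16 was read here only by a probe set near 3.7, and its shared probe sets, with means of 13.41 and 14.19, had folds of -0.23 and 0.03. Of the ribosomal proteins that the naming rule leaves out, Fau had a fold of 0.21 (SE 0.15), Rpl22l1 of -1.48 (SE 0.81), Rpl7l1 of -0.42 (SE 0.17) and Rps3a1 of -1.11 (SE 0.41). Rps19bp1, a binding protein of Rps19, had a fold of 0.49 (SE 0.22), and 0 of these 5 genes were called by limma, with 2 at an unadjusted p under 0.05.

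Genes around the ribosome were read against all genes, of which 12.1% were called lower and 9.72% higher. These lists were drawn up with earlier results of these data known. The other TOP and initiation factor lists were bright, with list means of 11.46 to 11.57 and 11.17 to 11.26 on primary arrays. Of genes with a mean of at least 10, 17.8% were called lower and 17.7% higher, with a median of -0.18. Of 25 other TOP mRNA genes, 4 were lower (16%) and 1 higher, with a median of -0.25, which is near the share of all genes called lower. Eef1d, a subunit of the exchange factor of elongation, rose by 0.75 (SE 0.23), and Eif3l, of the initiation complex eIF3, fell by 1.54 (SE 0.38). Eef1d was no longer called with the mouse as a block (limma adjusted p = 0.0693), with a variance trend (0.0609) or in 10 of the 12 fits that left out an array or a mouse (all but those without metastasis array 2 and without mouse 2), and the mean of its probe sets was at -0.10. Eif3l lost its call without primary arrays 1, 3 or 4, without metastasis array 3, without mice 3 or 4 and with the mean of its probe sets (-0.40, limma adjusted p = 0.126). Of 18 initiation factors, 6 were lower (33.3%) and 1 higher, with a median of -0.85 (-0.07 in mice 1 and 2, -1.70 in mice 3 and 4). Eif3m fell by 3.5 (SE 0.64) and Eif3i rose by 1.08 (SE 0.14), and both belong to eIF3. The means of their probe sets were -1.69 and 0.56, still called, and Eif3m lost its call without mouse 3. Among 33 ribosome biogenesis genes, 8 were lower (24.2%) and 2 higher, with a median of -0.65. Of these 33, 0 lay under the median of all values. In a fit limited to genes at or above that median, 20.8% of all were called lower, with a median of -0.14. The 24.2% is near that share. Nop58, of the box C/D particles that methylate ribosomal RNA, fell by 2.22 (SE 0.34), and Rpf2, which brings 5S RNA into the large subunit, rose by 2.00 (SE 0.27). The mean of the probe sets of Rpf2 was at -0.12, so its rise is that of the brightest probe set.

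Of 13 RNA polymerase I genes, 3 were lower (23.1%) and 1 higher, and 1 of the 13 lay under the median of all values. The share lower is near the 20.8% of genes at or above that median. Rrn3, the factor that makes the polymerase competent to start, fell by 1.33 (SE 0.29), a call lost without mouse 3 or mouse 4, and Taf1c, of the selectivity factor, rose by 1.66 (SE 0.17). Of 15 growth signalling genes, 5 were higher and 2 lower. Myc, which drives ribosome production, had a mean of 9.75 in primary tumours and 8.02 in metastases and fell by 1.73 (SE 0.38, limma adjusted p = 0.0146), a call lost without mouse 1 (limma adjusted p = 0.056) or mouse 3 (0.101). Mxd4, which competes with Myc for its partner Max, rose by 2.75 (SE 0.29, limma adjusted p = 0.000965), and by 0.80 with the mean of its probe sets. Mitochondrial ribosomal proteins, a separate family, were higher in 10 of 76 cases and lower in 7, with a median of -0.22. Mrps24 rose by 1.77 (SE 0.20) and Mrpl42 fell by 2.49 (SE 0.60). With the mean of the probe sets Mrps24 was at 0.47 and not called (limma adjusted p = 0.0994) and Mrpl42 at -1.28, still called. Mrpl42 lost its call without primary arrays 3 or 4, without metastasis array 3 and without mice 3 or 4.

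**Figure D5:**
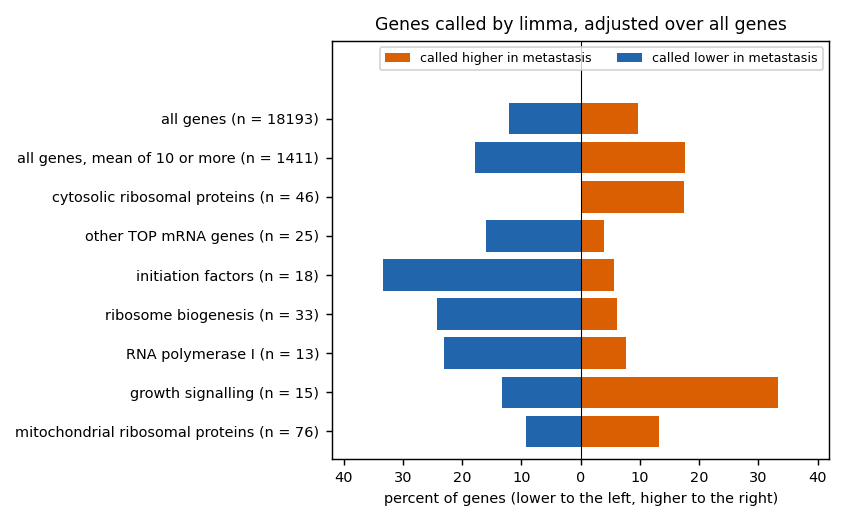
Percent of genes called higher (orange, right) and lower (blue, left) in metastasis by limma for all genes, all genes with a mean of at least 10, the 46 cytosolic ribosomal proteins and the related lists, with the number of genes measured. Cytosolic ribosomal proteins have 17.4% higher and 0% lower, whereas initiation factors and biogenesis genes extend mainly to the left. Genes at or above the overall median, not drawn, were called lower in 20.8% of cases in a fit limited to them.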

How the data were processed

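The authors deposited log2 signals for each probe set. Per the submitters' processing notes, RMA produced them. Its version, the arrays normalized together and any later step are not given in the sources used here. Array medians ran from 5.16 to 5.42. Symbols came from the platform annotation: 34945 probe sets had 1 symbol, 932 several and 9160 none, and 64 were controls. RefSeq gene IDs matched all 46 member genes. Metastasis was compared with primary by limma (version 3.58.1, R 4.3.3; lmFit and eBayes, two-sided, no block, no filter) over probe sets and over genes by the brightest probe set, with Benjamini-Hochberg adjustment and a threshold of 0.05. The fit was tested on simulated data. The number of arrays limits the precision. Figures and sequences used Python 3.11.15 and pandas 2.3.3. Members and lists were chosen with earlier results of these data known. Genes were named by a rule: up to 10 rises and 10 falls among called genes that moved the same way in all 4 mice, the stalk proteins, Rpsa, Rps6, Rpl5 and Rpl11, paralogs of restricted expression with their partners, genes with calls both ways, the extremes of each related list, and the ribosomal proteins outside the rule. Other members were named after their values were seen. The pairing comes from the design text, by which both tumours of a number are from the same mouse. Deviations from the group means correlated across probe sets at 0.16, -9.2e-06, 0.03 and -0.10 for mice 1 to 4.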

Additional observations from a re-analysis of the deposited data

Results flagged for a closer look

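In 2 of the 82 groups of 4 arrays that were checked, an array lay far from the other 3 by Dixon's ratio of gap to range, past the critical value for 4 values. Chance passes about 5% of groups. For Rpl35 in metastases the ratio was 0.888, with mouse 4 at 13.99 and the others between 13.71 and 13.74. For Rps6 in primary tumours it was 0.855, with mouse 1 at 8.52 and the others between 7.86 and 7.95.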

How the results depend on the processing

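Against 20 and 3 member probe sets called higher and lower, and 8 and 0 genes, the following alternatives moved a count by over 1.5 times. With the mouse as a replicate block 5 genes were higher, as with a common array median (5). This was 10.9% of members in both, against 7.63% and 7.12% of all genes. Genes lower numbered 1 with a common 75th percentile, 2 after quantile normalization, 1 among genes at or above the overall median, 2 with a mean of at least 10, 2 with a variance trend and 4 with the most variable probe set. In that order these were 2.17%, 4.35%, 2.38%, 5.88%, 4.35% and 8.7% of the members. Of all genes fitted, 10.8%, 10.1%, 20.8%, 22.4%, 12.2% and 16.8% were then lower. Probe sets lower numbered 5 after quantile normalization (5% against 10.6% of all) and 5 at or above the overall median (5.88% against 22.9%). Probe sets higher numbered 13 with a mean of at least 10, where 64 members remained. This was 20.3% of those members, against 18% of all such probe sets and 20% of the members in the main fit. Plain _at probe sets gave 3 and 0, and several symbols, added after seeing the data, 45 and 5. Replicates 1 and 2 alone gave 0 calls, and replicates 3 and 4 alone 8 and 24 probe sets and 4 and 13 genes. In replicates 3 and 4 alone 7.57% and 15.6% of all probe sets and 8.94% and 17.4% of all genes were called higher and lower. The actin covariate gave 0 calls of either kind and medians of 0.54 (probe sets) and 0.71 (genes), against -0.17 and -0.13 over all probe sets and all genes. All these counts are by limma. At an unadjusted p under 0.05 there were 12 member probe sets with the covariate and 21 in replicates 1 and 2 alone. The share of all probe sets at that cut was not counted in these fits. These 2 counts thus cannot be called particular to the family.

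Leaving out an array or a mouse gave 6 to 20 probe sets higher, 0 to 10 lower, 4 to 8 genes higher and 0 to 5 lower. The same fits called 2.96% to 10.2% of all probe sets higher and 3.68% to 14% lower. Of all genes they called 3.83% to 11.6% higher and 3.89% to 14.9% lower. Without primary replicate 3, 12 probe sets and 5 genes were higher, and without primary replicate 4, 13 and 5. Without mouse 1, 5 genes were higher, without mouse 2, 11 probe sets and 5 genes, without mouse 3, 6 and 4, and without mouse 4, 9 and 4. Calls were lost over the whole array too. Of all probe sets 2.96% were higher without mouse 3 and 4.15% without mouse 4, against 8.72% with all arrays. Probe sets lower rose to 10 and 6 and genes lower to 5 and 3 without metastasis replicates 1 and 2, and 0 probe sets were lower without mouse 3 or mouse 4. Without mouse 1, 1 gene was lower. Median folds stayed between -0.01 and 0.11 (probe sets) and between -0.04 and 0.12 (genes).

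Signs turned with the actin covariate for Rpl35 (-0.072), Eef1d (-0.77), Eif3l (1.56), Eif3m (2.42), Rrn3 (0.50), Myc (1.34) and Mrpl42 (2.38). The SEs of these folds ran from 0.49 (Rpl35) to 1.48 (Mrpl42). Their smallest limma adjusted p was 0.379 (Eif3m), so these signs are not settled. Signs also turned with the mean of a gene's probe sets for Eef1d (-0.10) and Rpf2 (-0.12). With the most variable probe set they turned for Rps10 (-0.20), Rpl35 (-0.92), Rps20 (-0.053) and Eef1d (-0.78). Of 866 values of named genes under alternatives, 114 lost a call and 17 gained it without a change of sign, and 47 changed sign without a call in either setting. The sign turns listed above were another 13 values, all of genes called in the main fit. Of these, Rpl35 by its most variable probe set was still called, now lower (limma adjusted p = 0.0317), and the others lost their call. The cause was not tested. Dim probe sets limit what can be read of Rpl39l, Rps4l, Rpl3l and Rps16.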
